A study of Mus musculus with 2 samples.

Results

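The genes described here encode the amyloid precursor protein (APP) family, its β-secretase and the subunits of γ-secretase, measured in cerebral cortex of presenilin conditional double knockout (PS cDKO) and control mice. They were taken by name: all probe sets that the platform annotation pairs with exactly 1 symbol among Psen2, Psenen, Aph1a, Ncstn, App, Aplp1, Aplp2 and Bace1. Of these 8 genes, 6 had a probe set, of 8251 genes with one in the whole table, and the 6 genes had 7 probe sets. No probe set was paired with Ncstn or Bace1 alone, so nicastrin and β-secretase were not analysed here. Total cortical RNA was hybridised to 1 oligonucleotide array for PS cDKO mice and 1 for control mice, each labelled as 6 months old. Alleles, the driver of the deletion, strain, sex and whether RNA was pooled are not given in the labels used here. As background, the published line of this name lacks Psen2 throughout the body and loses presenilin function in excitatory neurons of the postnatal forebrain, through a Cre transgene under a CaMKIIα promoter, so glia keep a presenilin.

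γ-Secretase is a protease of 4 kinds of subunit that cuts proteins within the membrane. Presenilin carries the catalytic site, nicastrin (Ncstn) has a large extracellular domain that limits which substrates can enter, APH-1 (Aph1a) scaffolds the assembly, and PEN-2 (Psenen) is needed for the cleavage of presenilin that activates it. APP is first cut outside the membrane, by α-secretase or by β-secretase (Bace1). γ-Secretase then cuts the membrane stub, releasing amyloid-β where β-secretase came first, and an intracellular fragment. APP and its relatives APLP1 and APLP2 are abundant in neurons, and all 3 are substrates of γ-secretase.

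The 2 substrates above background were lower in the PS cDKO and the 2 enzyme subunits above background lay close to control. App was 1.34-fold lower and Aplp2 1.24-fold lower in the PS cDKO, whereas Psenen was 1.08-fold and Aph1a 1.12-fold higher. Only App was at least 20% lower, as were 16.8% of genes in the top decile of signal, which holds App and Aplp2. After the trend of ratio with signal was removed by lowess, no member was that low. The Aplp2 value rests on 1 of its 2 probe sets, and with no floor on intensity the mean of both was above 0. Aplp1 and Psen2 were too dim on both arrays for a ratio. There was 1 array per genotype, so how far animals of a genotype vary is unknown here and no test was made. In RNA of whole tissue, fewer cells of a type and less RNA per cell cannot be told apart.

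Values below are array intensities, with the PS cDKO array scaled by a factor of 1.02. A floor of 232 was set, and a probe set under it on both arrays gave no ratio. The lowest and highest values among the members belong to different probes and are not an order of abundance. The median deposited intensity was 305 on the PS cDKO array and 300 on the control array, and 60.9% of PS cDKO and 59.1% of control probe sets lay above the floor. Of 12 neuronal markers 10 had a probe set, and all 10 were above the floor on both arrays. The floor is a percentile of intensity and not a call of presence.

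App, the amyloid precursor, was measured by 1 probe set, 93063_at. Its scaled intensity was 3816 in the PS cDKO (3728 as deposited) and 5101 in the control. The PS cDKO level was thus 74.8% of the control level, a log2 ratio of -0.42. Among the 5414 genes that exceeded the floor on each array, 208 (3.84%) had a ratio as low or lower. App lay at the 99.6th percentile of all intensities on the PS cDKO array and the 99.9th on the control array. Ratios tended downward among such bright genes: the median log2 ratio was -0.076 in the top decile of signal, against 0.0057 over all 5414 genes. Within that decile 42 of 542 genes (7.75%) were as low as App, and the App log2 ratio minus the decile's median was -0.34. When the trend of ratio with signal was removed by lowess, the App log2 ratio was -0.27, within 20% of control.

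Aplp2, the relative of APP with wide expression outside brain as well, had 2 probe sets. The brighter, 93498_s_at, had an intensity of 1208 in the PS cDKO and 1494 in the control, a log2 ratio of -0.31. Of the 5414 genes, 513 (9.48%) had a ratio as low. Within the top decile of signal, which holds this probe set, 98 of 542 genes (18.1%) were as low. Its log2 ratio minus that decile's median was -0.23. The other, 162224_r_at, read 45.9 in the PS cDKO and 34.8 in the control, both far under the floor, and gave no ratio. It pointed the other way from the bright one, and with no floor the mean of the probe sets was a log2 ratio of 0.045. Both Aplp2 probe sets carry a suffix, which marks sets whose probes were chosen under relaxed rules or may match more than 1 transcript.

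The bases before the annotated start sites of App and Aplp2, the 2 members that lay lower, and of Aph1a, a subunit that did not, are shown to let their composition be compared. They are the 250 bases upstream of the start in RefSeq on GRCm38.p6, given 5′ to 3′ on the gene's strand, with each GC box (GGGCGG or its reverse complement, the motif of Sp1-type factors) in capitals. The windows are chr16:85173708-85173957 on the minus strand for App, chr9:31211849-31212098 on the minus strand for Aplp2 and chr3:95893671-95893920 on the plus strand for Aph1a.
App: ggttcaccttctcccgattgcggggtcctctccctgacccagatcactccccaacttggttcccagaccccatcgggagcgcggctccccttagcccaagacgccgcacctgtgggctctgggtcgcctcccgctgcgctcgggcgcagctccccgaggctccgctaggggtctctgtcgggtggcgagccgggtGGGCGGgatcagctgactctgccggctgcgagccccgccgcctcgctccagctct
Aplp2: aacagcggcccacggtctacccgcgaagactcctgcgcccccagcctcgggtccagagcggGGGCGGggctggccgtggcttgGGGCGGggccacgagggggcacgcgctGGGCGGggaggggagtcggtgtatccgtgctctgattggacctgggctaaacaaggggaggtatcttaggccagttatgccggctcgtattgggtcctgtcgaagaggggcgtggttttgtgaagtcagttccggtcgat
Aph1a: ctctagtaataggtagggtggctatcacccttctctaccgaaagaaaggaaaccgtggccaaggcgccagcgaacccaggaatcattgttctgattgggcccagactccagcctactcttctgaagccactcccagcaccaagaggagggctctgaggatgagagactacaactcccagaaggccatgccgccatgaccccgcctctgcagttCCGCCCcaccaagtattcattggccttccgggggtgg
The App window held 1 GC box and was 70.8% G or C, the Aplp2 window 3 and 66.4%, and the Aph1a window 1 and 57.2%. Over 32851 mouse windows of the same length the median was 52.4% G or C, and 32.7% held at least 1 GC box. No TATA box (TATAAA), cyclic AMP response element (TGACGTCA) or RBPJ motif (GTGGGAA, bound by the partner of cleaved Notch) was found on either strand in these 3 windows. Of all windows 12.4%, 1.55% and 5.42% held these motifs in that order. CCAAT on either strand was found 0 times for App and 2 times each for Aplp2 and Aph1a, and in 33.8% of all windows. The 3 windows shown were chosen with their ratios known. Of the other members, Aplp1 held 1 GC box at 66% G or C and Ncstn 0 at 63.2%. The Psenen windows held 0 at 55.6% and 58.4%. A Psen2 window at 44.8% held 0 GC boxes and 1 RBPJ motif, and another at 62.8% held 2 GC boxes. These matches describe letters and do not show that a factor binds.

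Aplp1, the family member most restricted to the nervous system, had 1 probe set, 94874_at. Its intensity was 89.6 in the PS cDKO and 102.6 in the control, at the 14.4th percentile of the PS cDKO array and the 18.8th of the control array. Both values were under the floor, so no direction is read from them.

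Psen2, the presenilin gene among the members, was read by 1 suffixed probe set, 99930_s_at. It gave 97.1 in the PS cDKO and 105 in the control, at the 15.9th percentile of the PS cDKO array and the 19.3th of the control array. The probe set was under the floor in the control too, so it is no check of the genotype. The labels do not place its probes within or outside the deleted exons.

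Psenen, which encodes PEN-2, had an intensity of 599 in the PS cDKO and 553 in the control (94249_at). The log2 ratio was 0.12, and 3334 of the 5414 genes (61.6%) differed as far from 0 in either direction. Aph1a, the scaffold subunit, had 637 in the PS cDKO and 567 in the control (98078_at). Its log2 ratio was 0.17, and 2519 genes (46.5%) differed as far. The differences of both subunits were smaller than 0.21, the SD of the log2 ratio of 1 probe set as estimated from the disagreement between probe sets in 749 genes that had a pair. The App difference was 1.99 and the Aplp2 difference 1.46 times that SD, which holds no variation between animals.

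**Figure D1:**
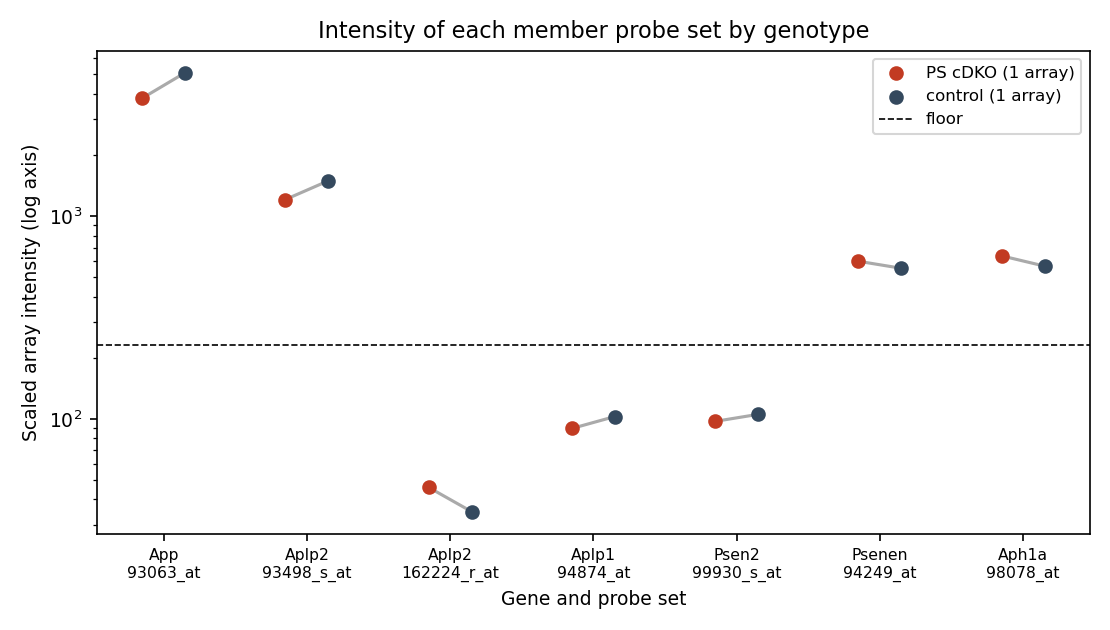
Scaled array intensity (log axis) of the 7 member probe sets, with the PS cDKO array in red on the left and the control array in dark grey on the right of each pair, 1 array per genotype. App and the bright Aplp2 probe set are lower in the PS cDKO, Psenen and Aph1a are slightly higher, and Psen2, Aplp1 and the second Aplp2 probe set lie under the dashed floor of 232.

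Differences were counted where the PS cDKO level was at least 20% lower or at least 25% higher than control, which are equal steps on a log scale. Of the 4 member genes that exceeded the floor on each array, 1 was lower by that measure (App) and 0 were higher. Of all 5414 such genes 8.48% were at least 20% lower and 7.5% at least 25% higher, and in the top decile of signal, which holds App and Aplp2, 16.8% were lower and 4.24% higher. A count of 1 among 4 genes says nothing particular about the group. The members' median log2 ratio was -0.096, which falls between the substrates and the subunits and describes neither. The mean log2 ratio of App and Aplp2 minus that of Psenen and Aph1a was -0.50. These pairs differ in brightness: the first lies in the top decile (median log2 ratio -0.076), the second in decile 6 (median -0.00048). After lowess, which removes the trend with signal, the ratios were -0.27 for App, -0.25 for Aplp2, 0.11 for Psenen and 0.16 for Aph1a. At 1.1-fold 2 members were lower and 1 was higher, where 27.3% of genes were lower and 27.6% higher. At 1.5-fold 0 members were lower or higher, where 0.757% of genes were lower and 0.887% higher, and at 2-fold 0 members and 0.0554% of genes passed in each direction.

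**Figure D2:**
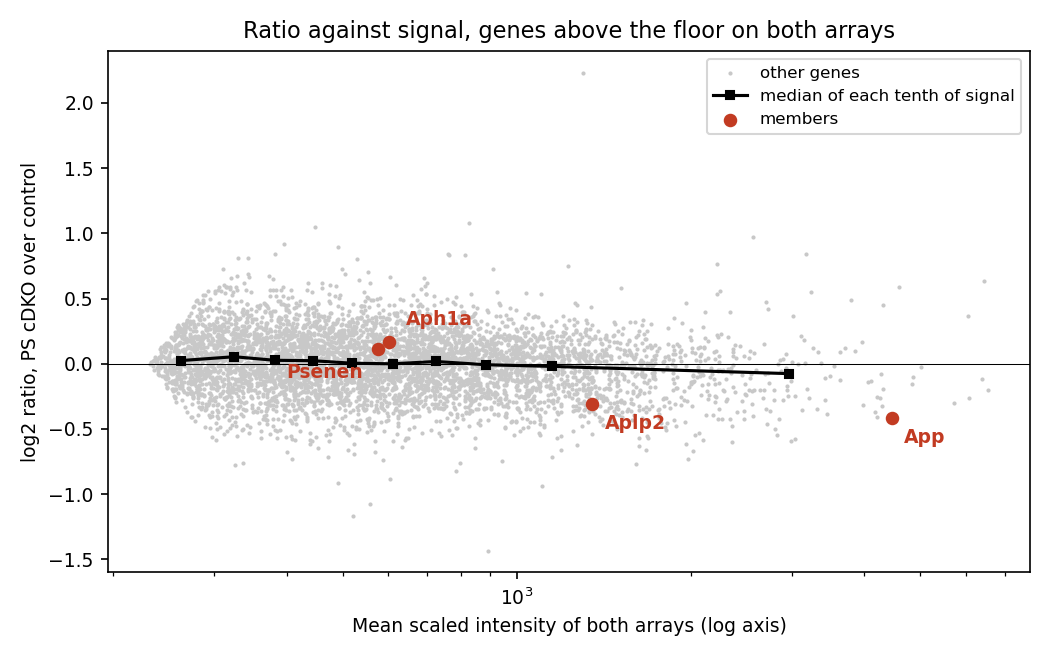
Log2 ratio of PS cDKO over control against mean scaled intensity of both arrays (log axis) for the 5414 genes that exceeded the floor on each array, in grey, with the 4 members in red and the median of each decile of signal as black squares. App and Aplp2 lie in the top decile, whose median is -0.076, and below that median; Psenen and Aph1a lie in the middle of the cloud.

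The proteins that act with APP and γ-secretase were described by 5 lists of 86 genes, 60 of which had a probe set and 54 a value, 2 of those as a bound. Of the 54, 8 were at least 20% lower (14.8%) and 5 at least 25% higher (9.26%), against 8.36% and 8.05% of all 5886 genes with a value, bounds counted at their limit. After quantile normalization and after lowess the lower count was 4 of 55 in each case (7.27%), where 8.33% and 8.31% of all genes were as low, so no larger share than among all genes remained. Their median log2 ratio was -0.035, and that of all 5886 genes 0.012.

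Alpha-secretases and other sheddases, which cut APP within the amyloid-β stretch or beside it, passed neither limit in any of the 3 genes with a value. The list's median log2 ratio was 0.13. It was -0.012 with the 20th percentile as floor or with no floor, and 0.0079 with the 60th percentile as floor. Adam10, the main neuronal α-secretase, had 294 in the PS cDKO and 257 in the control, a log2 ratio of 0.19 from the probe set above the floor. A further Adam10 probe set was under the floor at 119 in the PS cDKO and 120 in the control. Adam17, an inducible α-secretase, had a log2 ratio of 0.13 (840 in the PS cDKO, 768 in the control) and Adam9 one of -0.11 (602 in the PS cDKO, 651 in the control).

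Of 10 proteins that bind APP with a value, 7 were lower, 3 of them by at least 20%, and 0 were at least 25% higher. Over all genes with a value the shares past these limits were 8.36% and 8.05%. In the top decile of signal, which holds Itm2c and Itm2b, they were 16.8% and 4.24%. The list's median log2 ratio was -0.17, against 0.012 over all genes. The median was -0.12 after quantile normalization and -0.11 after lowess. Itm2c and Itm2b, the BRI3 and BRI2 proteins that bind APP and limit its processing, were 1.32-fold and 1.28-fold lower. Itm2c read 2212 in the PS cDKO and 2923 in the control, and Itm2b 1429 in the PS cDKO and 1830 in the control. Mapk8ip1, the JIP1 scaffold that links APP to kinesin, was 1.28-fold lower as a mean of probe sets that differed widely. The bright one had a log2 ratio of -0.11 (2332 in the PS cDKO, 2521 in the control) and the suffixed one -0.61 (345 in the PS cDKO, 526 in the control). The adaptors of the APP tail Apbb1 (Fe65) and Apba2 (X11-like), chosen after their values were seen, had log2 ratios of -0.30 each. Apbb1 read 1228 in the PS cDKO and 1517 in the control, and Apba2 555 in the PS cDKO and 684 in the control.

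Genes of APP trafficking and the retromer had a median log2 ratio of -0.067, with 10 of 15 lower, 1 of them by at least 20%, and 1 at least 25% higher. Past the same limits lay 8.36% and 8.05% of all genes with a value. Rtn4, an endoplasmic reticulum reticulon whose relatives bind β-secretase, was 1.37-fold lower (1424 in the PS cDKO, 1945 in the control). Rab11a, a GTPase of recycling endosomes, gave -0.15 in its brighter probe set and -0.38 in the other, as log2 ratios. Kif5b, a kinesin heavy chain, read 505 in the PS cDKO and 166 in the control, under the floor there, so that it was at least 2.18-fold higher, a bound that falls as the floor rises.

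The list of γ-secretase homologues, modulators and interactors had a median of -0.11 over 8 genes, 2 of them at least 20% lower and 1 at least 25% higher. Among all genes with a value the shares were 8.36% and 8.05%. Ctnnd2, δ-catenin, which binds presenilin, was 1.31-fold lower by its only probe set, a suffixed one (1379 in the PS cDKO, 1809 in the control). Bsg, basigin, reported as a regulatory partner of the complex, was 1.28-fold lower (1109 in the PS cDKO, 1414 in the control). Ubqln2, a ubiquilin of the family that binds presenilins, was 1.58-fold higher (392 in the PS cDKO, 248 in the control), with the control close to the floor.

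Other substrates of γ- or β-secretase had a median above 0, at 0.10 over 19 genes, with 11 higher and 8 lower. It was 0.041 with the 20th percentile as floor and 0.040 with no floor. App and Aplp2 were lower, but lie in the top decile of signal, where the median of all genes was -0.076. Among the 19 genes 3 were at least 25% higher and 2 at least 20% lower (8.05% and 8.36% of all genes with a value). St6gal1, a sialyltransferase cut by β-secretase, was 1.30-fold higher, with a log2 ratio of 0.54 in the brighter probe set and 0.22 in the other. Cdh2, N-cadherin, was at least 1.31-fold higher (303 in the PS cDKO, 159 in the control). Sez6l, a neuronal substrate of β-secretase, was 1.28-fold lower (350 in the PS cDKO, 448 in the control). The difference between these genes and the APP family was not tested, since each genotype has 1 array.

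Markers of the cortex's cell types moved on the same 2 arrays, and their part in the App and Aplp2 values was not tested. Unlike the ratios, the sums of each marker list add the brightest probe set of every gene with one, including genes under the floor. Among all 5886 genes with a value 8.36% were at least 20% lower and 8.05% at least 25% higher. In the top decile of signal these shares were 16.8% and 4.24%. Of the 10 neuronal markers 8 were lower, 5 by at least 20%, with a median log2 ratio of -0.27. Their summed intensity was 16251 in the PS cDKO and 19906 in the control. The brightest were Snap25, of the synaptic fusion machinery, at 3632 in the PS cDKO and 4705 in the control (1.30-fold lower), and Thy1, a surface glycoprotein of projection neurons, at 2292 in the PS cDKO and 3344 in the control (1.46-fold lower). The App ratio of 1.34-fold lay between those of Snap25 and Thy1. These do not stand for the list: log2 ratios of the 10 neuronal markers ran from -0.54 to 0.062, with 2 above 0. All 9 microglial markers with a value were higher, 5 by at least 25%, and the list summed to 6765 in the PS cDKO and 4178 in the control. C1qa and C1qc were its brightest genes, at 2.11-fold and 1.66-fold higher.

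Of 8 astrocyte markers 5 were higher, 3 by at least 25% (8.05% of all genes with a value), with sums of 12730.4 in the PS cDKO and 11373 in the control. The 3 were Gfap, the filament of reactive astrocytes (2145 in the PS cDKO, 458 in the control, 4.68-fold higher), the connexin Gja1 (1.46-fold higher, from a bright probe set at a log2 ratio of 0.019 and a dimmer one at 1.08) and the water channel Aqp4 (1.45-fold higher). Gfap differed by more than the list's sums did, so without Gfap the list summed lower in the PS cDKO. The brightest of the list, Aldoc and Glul, were 1.19-fold and 1.08-fold lower. The 5 oligodendrocyte markers with a value had a median log2 ratio of -0.21 (0.13 with no floor). Of these 4 were lower, 2 by at least 20% (8.36% of all genes with a value). That list summed to 5136 in the PS cDKO and 5201 in the control, with Mbp, the only 1 higher, at 1.12-fold and Mobp 1.36-fold lower. Endothelial and mural markers summed to 1679 in the PS cDKO and 1653 in the control, with Kdr at a log2 ratio of 0.14. Flt1 was at 0.0059, the mean of probe sets that pointed opposite ways, at -0.17 and 0.19. The tight junction gene Cldn5 was 1.35-fold lower (236 in the PS cDKO, 320 in the control). Choroid plexus and meningeal markers summed to 3802 in the PS cDKO and 4128 in the control, with Igf2 and Folr1 at log2 ratios of 0.10 each. In that list Ttr, a transport protein of choroid plexus, was 1.84-fold lower (425 in the PS cDKO, 782 in the control) and Igfbp2 1.60-fold lower (308 in the PS cDKO, 492 in the control). Gfap, Gja1, Aqp4, Cldn5, Ttr and Igfbp2 were chosen after their values were seen. No marker of these lists was at 0 on either array, and the markers under the floor on both arrays were Aif1, Cnp, Mog, Cdh5, Pdgfrb, Pecam1, Tek and Lum.

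**Figure D3:**
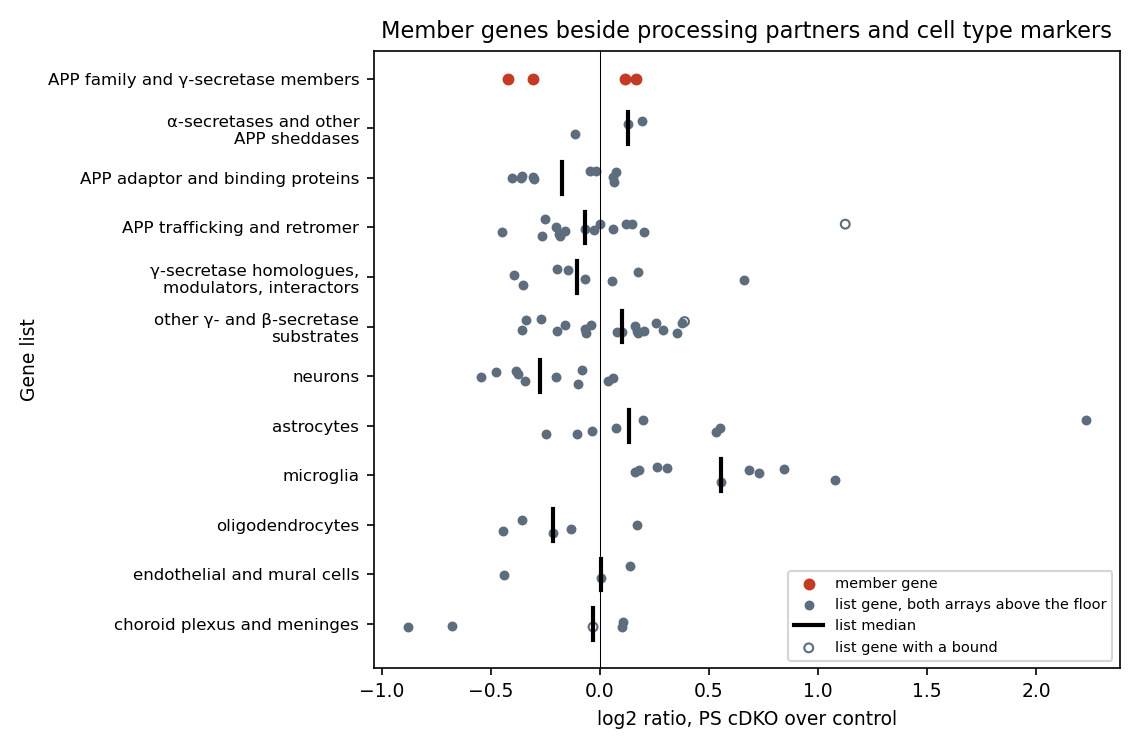
Log2 ratio of PS cDKO over control for the 4 member genes (red), the genes of 5 lists of APP and γ-secretase partners and those of 6 cell type marker lists (grey, open where the value is a bound), with black bars at list medians. App and Aplp2 lie below 0, as do the medians of the APP-binding proteins (-0.17) and neuronal markers (-0.27). Psenen and Aph1a lie above 0, as do the medians of the α-secretases (0.13 over 3 genes, 1 of them lower) and other substrates (0.10). The α-secretase median was -0.012 with the 20th percentile as floor or with no floor. No likeness between members and lists was computed.

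The members' directions were compared across the scalings and floors. App, Psenen and Aph1a each have a single unsuffixed probe set above every floor tried, so only the 3 other scalings could move them. App was lower in these 3, with log2 ratios of -0.45 on deposited intensities, -0.39 after quantile normalization and -0.27 after lowess. Psenen was higher in these 3, between 0.082 and 0.11, as was Aph1a, between 0.13 and 0.16. Aplp2 was lower in these 3 as well, at -0.34, -0.25 and -0.25 in the same order of settings as App. With no floor its mean was above 0, and without suffixed probe sets it had no value.

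**Figure D4:**
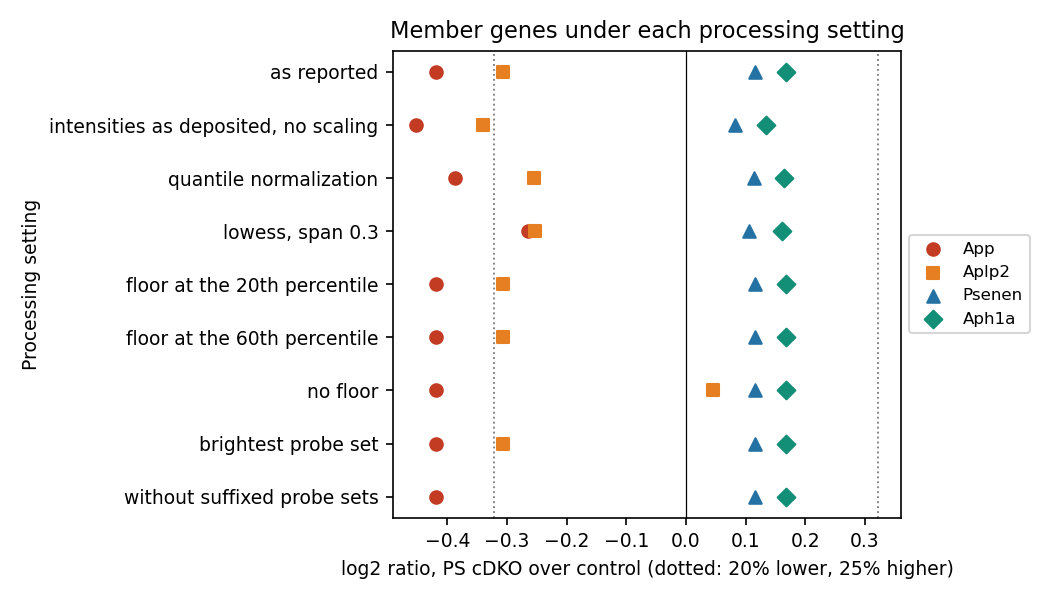
Log2 ratio of PS cDKO over control (horizontal axis) of App, Aplp2, Psenen and Aph1a under the 9 processing settings (vertical axis), with dotted lines at 20% lower and 25% higher than control. App passes the lower line in every setting but lowess, Aplp2 only on deposited intensities, and the subunits in none.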

How the data were processed

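The authors deposited a linear intensity for each of 12418 probe sets on each array. No source used here names the software, background step or scaling. Of these values, 18 on the PS cDKO array and 13 on the control array are below 0, so some subtraction preceded deposit. Platform annotation gave 1 symbol to 10829 probe sets, several to 396 and none to 1193. Of 8251 genes, 8237 had their gene ID in RefSeq's table (GRCm38.p6), used for names.

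Intensities of the PS cDKO array were multiplied by 1.02, which brings the median log2 ratio to 0 among probe sets brighter than the median on each array and adds 0.034 on that scale. The floor was the 40th percentile of all values of the scaled pair of arrays, and dimmer values were raised to it before taking log2. A gene's log2 ratio, PS cDKO over control, averages those of its probe sets that exceed the floor on each array. Where only 1 array exceeds it, the ratio is a bound. This gave 5886 genes, 472 with a bound. The procedure was tested on simulated data with 2-fold changes placed in genes well above the floor. That simulation does not show how it performs for differences as small as those of the members. No label says that arrays are biological replicates, and with 1 per group there is no test. Their number limits the precision.

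The members and lists were chosen with earlier results of these data known. Named genes are all members, from each partner list the 3 genes with the largest absolute log2 ratio and any other past 1.5-fold, and from each marker list the 2 brightest. The text says where a gene outside this rule is named. Python 3.11.15, numpy 2.4.6, pandas 2.3.3, statsmodels 0.14.6 and matplotlib 3.10.9 were used.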

Additional observations from a re-analysis of the deposited data

How the results depend on the processing

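Leaving out an array was not possible, as a genotype would then have none. No paired analysis was possible because there is 1 array a group and the labels number no pairs. Of 190 values under other settings 176 stayed within 0.21 on the log2 scale or, for counts, within 1.5 times, and 14 did not. None of the differences past the limits reversed. Many of the 190 could not change, since floors and the choice of probe set leave App, Psenen and Aph1a as they are. Members also count both as probe sets and as genes. A value that stayed within 0.21 could still cross 0, as the α-secretase median did (0.13, and -0.012 with the 20th percentile as floor). The count of members at least 20% lower, 1, became 2 on deposited intensities (Aplp2 joined App) and 0 after lowess. At 1.1-fold 2 were lower and 1 higher, and at 1.5-fold and 2-fold 0 were lower. With no floor, the dim probe sets of Psen2, Aplp1 and Aplp2, which otherwise gave no ratio, had log2 ratios of -0.12, -0.20 and 0.40, and Aplp2 as a gene 0.045. Without suffixed probe sets, which removes Aplp2, the members' median was 0.12. Partner genes at least 20% lower, 8, became 4 after quantile normalization and 4 after lowess (7.27% each, against 8.33% and 8.31% of all genes). Those at least 25% higher, 5, became 9 with no floor (15%, against 16.1% of all genes) and 3 with the 60th percentile as floor (6.82%, against 5.52%). The oligodendrocyte median was 0.13 with no floor and the choroid plexus and meningeal median -0.35 without suffixed probe sets, against -0.21 and -0.031. Over all genes 492 were at least 20% lower and 474 at least 25% higher, and on deposited intensities 633 and 374. These counts were 597 and 842 with the 20th percentile as floor, 365 and 230 with the 60th, and 770 and 1330 with no floor. Where no construction is named, the cause was not tested. Members near or under the floor, Psen2 and Aplp1, are limited by signal over background.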
